A study of Mus musculus with 25 samples.

Results

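The genes described here are 6 genes of the contractile apparatus of mammary myoepithelial cells: Acta2, Myh11, Mylk, Cnn1, Tagln and Oxtr. They were chosen by name, and each has 1 row in both deposited count tables, among 53070 gene symbols that the tables share. Myoepithelial cells form the basal layer of mammary ducts and alveoli and squeeze milk out of the alveoli. Oxytocin binds its receptor, encoded by Oxtr, and raises calcium, calcium and calmodulin activate myosin light chain kinase, encoded by Mylk, and the kinase lets myosin, whose smooth muscle heavy chain is Myh11, pull on actin filaments built from the smooth muscle actin Acta2. Cnn1 (calponin) and Tagln (transgelin, also called SM22) bind those filaments. The same genes, other than Oxtr, are textbook markers of vascular smooth muscle, pericytes and activated fibroblasts as well, so their transcripts do not by themselves name a cell type.

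The RNA came from GFP-positive, DAPI-negative cells sorted from mouse mammary tumours after collagenase and trypsin digestion. All tumours carried LSL-Pik3ca H1047R, an activated allele of a PI3-kinase subunit that is silent until Cre removes a stop cassette, and LSL-Cas9-EGFP, which Cre switches on in the same way. In 19 tumours of F1 C57BL/6 x FVB/N mice the Cre came from a lentivirus that also carried a guide RNA, which was non-targeting (2 tumours) or directed against Asxl2 (2), Kdm6a (2), Kmt2c (3), Setd2 (2), Apc (4) or Trp53 (4). In 6 tumours of mixed C57BL/6 x FVB/N mice the Cre came from an adenovirus that expresses it under the promoter of Krt5, a keratin gene of basal cells, and the labels list no guide; 3 of these mice were Kdm6a wildtype and 3 Kdm6a fl/fl. The labels give no age for the mice.

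The count columns are headed by running numbers. The study's design text gives numbers 1 to 19 to the lentiviral experiment and 20 to 25 to the Krt5-Cre experiment, and the labels of 2 Kdm6a fl/fl tumours name the table that holds libraries 23 and 24. Which guide belongs to which of libraries 1 to 19, and which of libraries 20, 21, 22 and 25 is the remaining Kdm6a fl/fl tumour, could be read only from the order of the sample records and was not used here. Levels are therefore given for each library by its number and compared between the 2 experiments, and no guide is compared with the non-targeting guide. Library totals ran from 9084993 to 43673097 counts in the lentiviral experiment and from 7733478 to 22164605 in the Krt5-Cre experiment. Library 13 stood apart, with 12757 genes detected against 19491 to 23264 in the other 24, and with the lowest mean correlation to the other lentiviral libraries (Pearson r = 0.749 over 12089 genes). Library 21 had the lowest such value among the Krt5-Cre libraries (0.722). No pair of libraries agreed within sampling noise; the closest, libraries 3 and 4, had a chi-square of 12.8 times its degrees of freedom. Kdm6a, targeted in both experiments, was detected in all 25 libraries, at 35.9 to 96.8 CPM in the lentiviral and 59.9 to 138 CPM in the Krt5-Cre experiment. The Kdm6a fl/fl libraries 23 and 24 had 59.9 and 60.2 CPM, the lowest levels of the Krt5-Cre experiment, against 83.7, 110, 118 and 138 CPM in libraries 25, 20, 22 and 21. Which exons are deleted is not given in the labels, and the lentiviral levels check no label, since guides are not tied to columns.

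Acta2 lies on chromosome 19 from 34241090 to 34255590 (GRCm38, minus strand), Myh11 on chromosome 16 from 14194535 to 14291372 (minus), and Mylk on the same chromosome from 34745210 to 35002420 (plus). Cnn1 lies on chromosome 9 from 22099216 to 22109630 (plus), Tagln on chromosome 9 from 45929619 to 45936058 (minus) and Oxtr on chromosome 6 from 112473683 to 112489943 (minus). All are protein-coding, and the counts cover their exons. Antisense Gm48529 overlaps 62.4% of the exon bases of Tagln and had 0 to 4.17 CPM, and the protein-coding Pcsk7 overlaps 5.43% of them on the opposite strand and had 28.8 to 80.6 CPM, with a median above that of Tagln in both experiments. Antisense E130310I04Rik and Gm21691 overlap 4.87% and 1.99% of the exon bases of Mylk. Reads of Acta2 may be shared with the closely related actin genes Acta1 and Actg2, and no source at hand states whether the counting used strand, so the levels of Acta2, Tagln and Mylk carry that uncertainty.

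Smooth muscle genes are classically driven by serum response factor (SRF), which binds a DNA element called the CArG box. RefSeq promoter sequences (250 bases before to 50 after the start, GRCm38.p6) were at hand for 4 of the 6 genes, Acta2, Cnn1, Mylk and Oxtr. The promoters of Acta2 and Cnn1 are shown because these genes gave the closest pair of levels across libraries. CArG boxes with at most 1 base other than A or T in their centre are in capitals.

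Acta2 promoter, chr19:34255324-34255623, minus strand: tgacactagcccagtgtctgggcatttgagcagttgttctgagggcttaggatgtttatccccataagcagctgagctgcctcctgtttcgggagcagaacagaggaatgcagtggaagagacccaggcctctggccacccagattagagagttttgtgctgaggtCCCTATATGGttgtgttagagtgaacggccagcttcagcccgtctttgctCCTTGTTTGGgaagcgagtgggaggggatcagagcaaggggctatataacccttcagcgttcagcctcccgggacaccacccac

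Cnn1 promoter, chr9:22099003-22099302, plus strand: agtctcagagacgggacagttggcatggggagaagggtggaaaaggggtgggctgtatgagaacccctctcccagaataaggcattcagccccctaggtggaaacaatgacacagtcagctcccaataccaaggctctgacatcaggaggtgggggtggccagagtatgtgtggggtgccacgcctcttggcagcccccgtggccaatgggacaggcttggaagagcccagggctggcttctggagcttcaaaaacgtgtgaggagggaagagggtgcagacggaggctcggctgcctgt

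The Acta2 promoter held 2 such elements, CCCTATATGG beginning 84 bases and CCTTGTTTGG beginning 34 bases before the RefSeq start. Of 32851 mouse promoters of the same length, 9.98% held at least 1 match and 0.822% held 2 or more. The CArG box reads the same on both strands, so 1 search covers both. No match stood in the promoter windows of Cnn1, Mylk or Oxtr, which says only that these letters are not in those 300 bases. The RefSeq start of each of the 4 windows lies inside the gene as annotated above. Both Acta2 elements also lie inside that gene, whose first base on the minus strand is 34255590. The Mylk window (chromosome 16, 34784700 to 34784999) lies wholly inside its gene, whose first base is 34745210. The bases before that first base of Mylk were not searched. The strict form, with only A and T in the centre, was in none of the 4 windows and in 1.63% of all promoters.

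Acta2 was the most abundant of the 6 genes per length of transcript in all 19 lentiviral and all 6 Krt5-Cre libraries. On the length-corrected scale (TPM, counts per exon length, scaled to the same sum in each library) the median level of Acta2 was 504 TPM in the lentiviral and 624 TPM in the Krt5-Cre libraries. The other 5 genes had lentiviral medians between 10.6 TPM (Myh11) and 16.04 TPM (Tagln), and their order changed from library to library: Oxtr was second in 6 lentiviral libraries, Cnn1 in 5, Myh11 in 4, and Mylk and Tagln in 2 each. In the Krt5-Cre libraries the median was 57.4 TPM for Cnn1, 36.7 for Myh11, 25.6 for Tagln, 23.95 for Mylk and 23.4 for Oxtr. The ranges of these 5 genes overlapped in both experiments. The values that follow are CPM (counts scaled to the same total in each library), which suit comparisons of 1 gene between libraries.

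**Figure D1:**
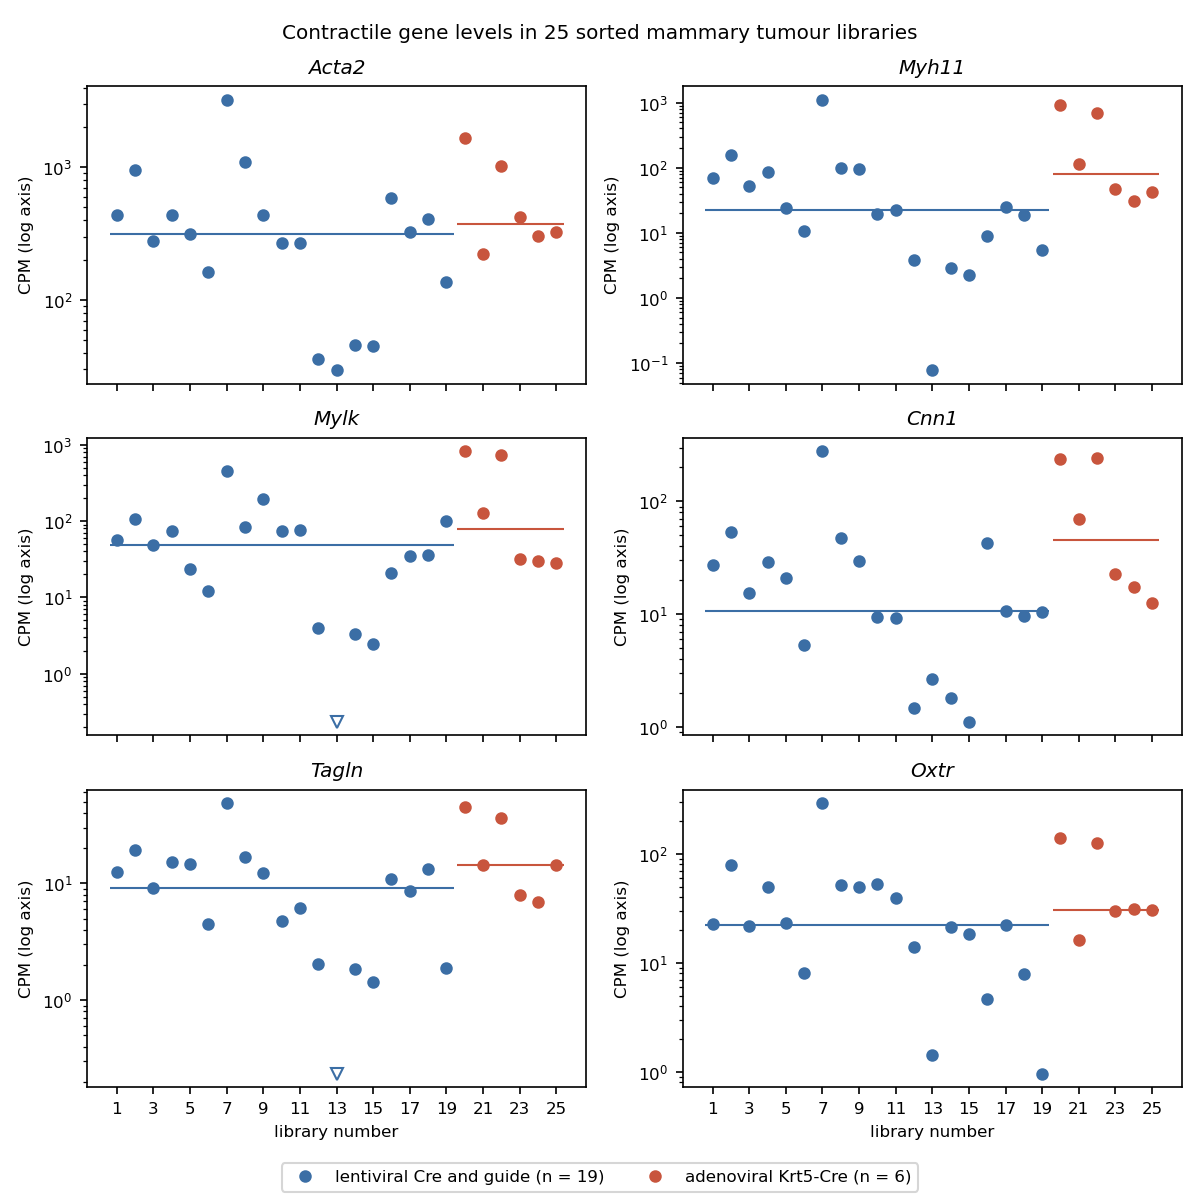
Level of each contractile gene (CPM, log axis) in each library by its number. Points are single libraries, lines are the median of the experiment, and open triangles mark 0 counts, drawn at the limit of 3 counts. Libraries 7, 20 and 22 hold the highest levels of Myh11, Cnn1, Tagln and Oxtr, and libraries 12 to 15 the lowest levels of Acta2.

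Acta2, the actin of the contractile filament, had 29.7 CPM at its lowest (library 13), a median of 313 CPM and 3249 CPM at its highest (library 7) in the lentiviral experiment. In the Krt5-Cre experiment it had 1655, 223, 1031, 422, 302 and 327 CPM in libraries 20 to 25. Libraries 12 to 15, at 35.8, 29.7, 46.1 and 45.1 CPM, lay below all other libraries, the next of which was library 19 at 138 CPM. The experiments overlapped over the whole Krt5-Cre range.

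Myh11, the smooth muscle myosin heavy chain, ranged most widely. It had 0.0784 CPM (1 count) in library 13, a median of 22.6 CPM and 1113 CPM in library 7. Libraries 20 to 25 had 930, 116, 696, 46.7, 30.6 and 42.1 CPM. Libraries 7, 20 and 22 stood at 48.2, 40.3 and 30.1 times the lentiviral median, on CPM + 0.5, and the next highest was library 2 at 157 CPM.

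Mylk, the kinase that activates myosin, had no count in library 13, which allows up to 0.235 CPM with 3 counts as the limit. Its lentiviral median was 48.1 CPM and its highest lentiviral level 456 CPM (library 7). Libraries 20 and 22 exceeded that with 819 and 743 CPM, library 21 had 126 CPM, and libraries 23, 24 and 25 had 31.9, 29.9 and 28.3 CPM, below the lentiviral median. Mylk was the only member whose highest level was in a Krt5-Cre library.

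Cnn1, which binds actin and slows myosin, had 1.11 CPM at its lowest (library 15), a median of 10.6 CPM and 278 CPM at its highest (library 7) among lentiviral libraries. Libraries 20 to 25 had 238, 69.2, 242, 22.5, 17.6 and 12.6 CPM, each above the lentiviral median. Tagln, the related filament-binding protein, was the least abundant member by CPM in the lentiviral experiment, with no count in library 13, a median of 9.08 CPM and 48.7 CPM in library 7. Its Krt5-Cre levels were 45.3, 14.4, 36.3, 7.89, 6.94 and 14.3 CPM. Both genes again had their 3 highest levels in libraries 7, 20 and 22.

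Oxtr, the receptor through which oxytocin triggers contraction, had 0.962 CPM in library 19, a median of 22.3 CPM and 293 CPM in library 7. The Krt5-Cre libraries had 140, 16.2, 126, 30.1, 31.4 and 30.2 CPM. Library 13, the lowest for Acta2, Myh11, Mylk and Tagln, was second lowest for Oxtr at 1.41 CPM. Other low libraries differed from those of the filament genes. Libraries 12, 14 and 15, low in Acta2 and Mylk, had 13.97, 21.1 and 18.48 CPM of Oxtr, while library 16, with 589 CPM of Acta2, had 4.66 CPM.

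The 6 genes varied between libraries far more than most genes. In the lentiviral experiment the SD of log2(CPM + 0.5) was 2.51 for Myh11, 2.38 for Mylk, 1.88 for Cnn1, 1.83 for Oxtr, 1.77 for Acta2 and 1.55 for Tagln, against a median of 0.523 over 15009 genes with at least 1 CPM in at least 5 libraries. Between 94.0% (Tagln) and 99.7% (Myh11) of those genes had a smaller SD. In the Krt5-Cre experiment the SD was 2.29 for Mylk, 2.14 for Myh11 and 1.88 for Cnn1, against 1.25 for Oxtr, 1.13 for Acta2 and 1.08 for Tagln. The share of genes with a smaller SD there ran from 80.0% for Tagln to 97.7% for Mylk. The lentiviral spread includes 7 guides, and the Krt5-Cre spread 2 genotypes. Libraries 23 and 24, both Kdm6a fl/fl, lay close together, with 362 ± 85.1 CPM of Acta2, 38.6 ± 11.4 of Myh11, 30.9 ± 1.46 of Mylk, 20.0 ± 3.48 of Cnn1, 7.41 ± 0.673 of Tagln and 30.8 ± 0.887 of Oxtr (SD, n = 2). Library 25, whose genotype is not assigned here, was close to them in Acta2 (327 CPM), Myh11 (42.1), Mylk (28.3) and Oxtr (30.2). It was lower in Cnn1 (12.6) and higher in Tagln (14.3).

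**Figure D2:**
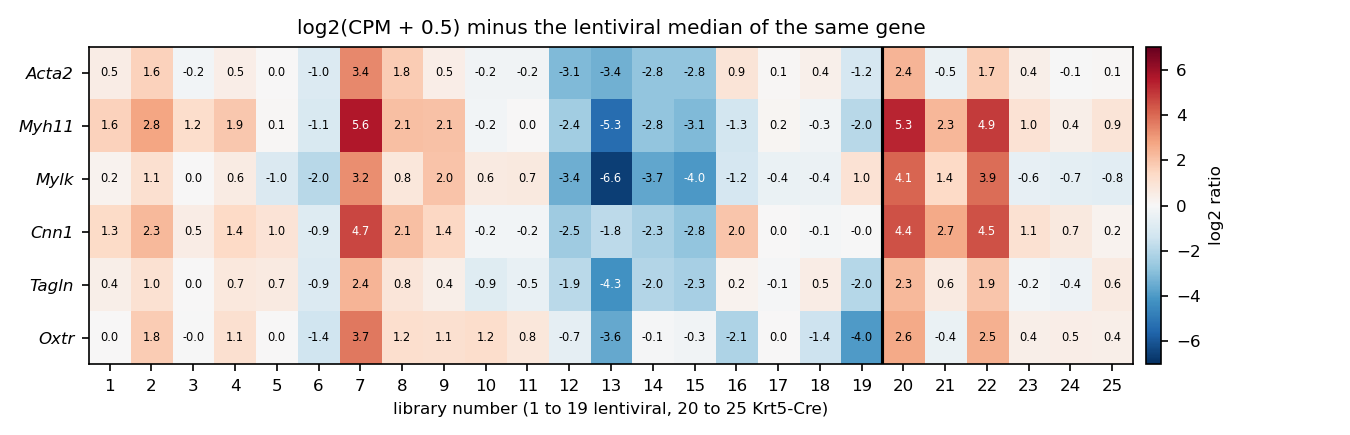
Each cell is log2(CPM + 0.5) of a gene in a library minus the lentiviral median of that gene, with libraries in columns and the Krt5-Cre libraries right of the line. Library 7 is above the median for all 6 genes and libraries 12 to 15 below it for all 6, while libraries 16 and 19 mix signs.

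All 6 genes lay above their lentiviral median in lentiviral libraries 1, 2, 4, 7, 8 and 9 and in Krt5-Cre libraries 20 and 22, and all 6 lay below it in libraries 6, 12, 13, 14 and 15. In the other libraries members differed in direction or lay at a median. Library 16 was above the median in Acta2 (1.88 times), Cnn1 (3.89 times) and Tagln (1.19 times) and below it in Myh11 (0.407 times), Mylk (0.434 times) and Oxtr (0.226 times). Library 19 had Mylk at 2.05 times and Oxtr at 0.0644 times the median, a distance of 4.998 on the log2 scale and the widest of all libraries. Among the low libraries, 14 and 15 had Oxtr at 0.951 and 0.834 times its median with Mylk at 0.0791 and 0.0613 times. Library 21 had Cnn1 at 6.30 and Myh11 at 5.02 times, with Acta2 at 0.713 and Oxtr at 0.735 times.

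Over the 19 lentiviral libraries all 15 pairs of members rose and fell together. Pearson's r of log2(CPM + 0.5) ran from 0.548 to 0.957 with a median of 0.862, Spearman's rho from 0.570 to 0.940, and adjusted permutation p-values were at most 0.016 for r and 0.0122 for rho over the 15 pairs (two-sided, 100000 permutations). The closest pair was Acta2 with Cnn1 (r = 0.957, rho = 0.940, permutation p = 1e-05 for each, the smallest the permutations can give, and 1.88e-05 and 3.75e-05 after adjustment). Without the 2 libraries farthest from the Acta2 median, 7 and 13, r for that pair was 0.952. Pairs with Oxtr were the loosest, from 0.548 with Cnn1 to 0.802 with Myh11, and without libraries 7 and 13 the r of Acta2 with Oxtr was 0.339, so that relation did not hold with both left out.

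Because libraries 12 to 15 formed a separate low group for Acta2, the pairs were also computed over the other 15 lentiviral libraries, a choice made after the values were seen. There, with library 7 kept, r was 0.708 for Acta2 with Oxtr, above the 0.618 over all 19. It was 0.930 for Acta2 with Cnn1, 0.903 for Acta2 with Tagln, 0.876 for Myh11 with Oxtr and 0.411 for Mylk with Tagln, the lowest of all pairs. Spearman's rho of Acta2 with Mylk was 0.325 there, against 0.663 over all 19. The libraries left out were picked by their Acta2 level, which narrows its range and can by itself lower r and rho. Tumours with the same guide are not independent, which these permutations do not take into account, so their p-values may be too small.

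Over the 6 Krt5-Cre libraries the closest pairs were Myh11 with Mylk (r = 0.993, rho = 0.943) and Mylk with Cnn1 (r = 0.991, rho = 0.943). No pair passed an adjusted p under 0.05 in exact permutation tests with n = 6, with an adjusted p of 0.05 at the lowest for r and 0.0833 for rho. The unadjusted exact p was under 0.05 in 6 of 15 pairs for r and in 4 for rho.

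**Figure D3:**
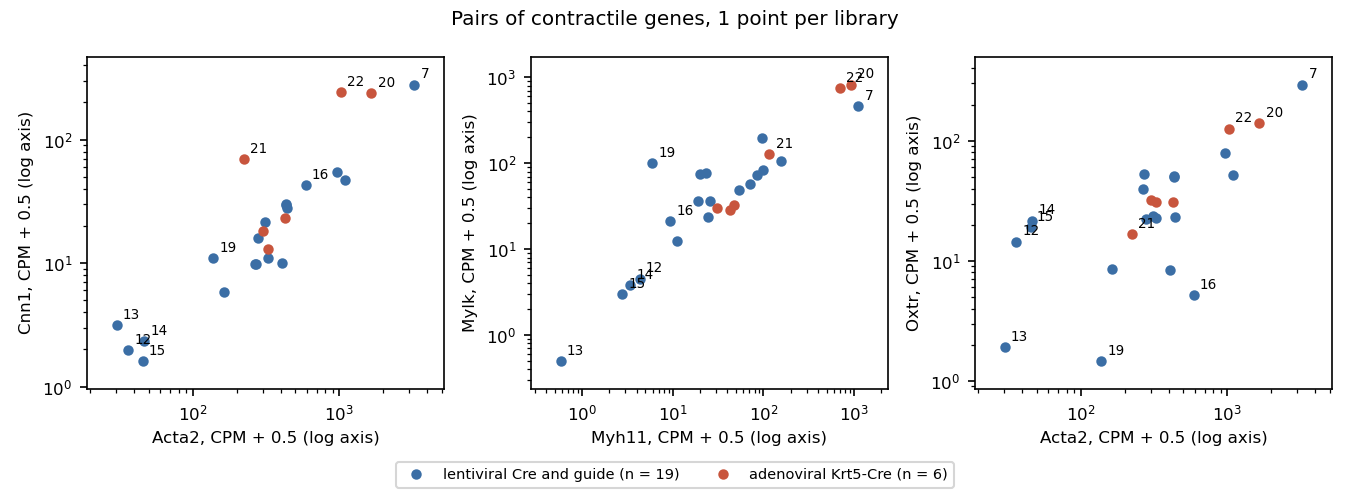
Levels (CPM + 0.5, log axes) of 3 pairs of members, 1 point per library, with numbers on the libraries named in the text. Acta2 and Cnn1 lie along a line, library 19 lies high in Mylk for its Myh11, and libraries 12, 14 and 15 lie high in Oxtr for their Acta2.

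Genes with the most similar course over the 19 lentiviral libraries were sought among genes with a median of at least 10 CPM, by Spearman's rho with the mean of the 6 standardised members. The 10 highest of 9624 were Cttn and Myl9 (both 0.902), Palld (0.891), Cryab (0.884), Tril (0.882), Emid1 (0.875), Afap1 and Dnajc1 (both 0.872), Ahcy (0.868) and Dag1 (0.867). Myl9 is the regulatory light chain that Mylk phosphorylates in smooth muscle, Cttn (cortactin), Palld (palladin) and Afap1 bind actin, Cryab is a small heat shock protein, and Dag1 is the laminin receptor dystroglycan. By Pearson's r, 4 of these genes were among the 10 highest, and Myl9 led with 0.940.

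For single members, the highest rho was 0.940 between Acta2 and Cnn1, and Myl9 was among the 3 most similar genes of Acta2 (0.911), Cnn1 (0.935), Tagln (0.930) and Myh11 (0.882). Vcl (vinculin) followed for Acta2 at 0.863 and Lbh for Cnn1 at 0.879. Tril led for Myh11 (0.891), and Palld followed Myl9 (0.881). Acta2 and Myh11 followed Myl9 for Tagln, at 0.926 and 0.891. Mylk was most similar to Sardh (0.930), Tril (0.916) and Il17b (0.891), and Oxtr to Pik3c2a (0.904), Gclc (0.882) and Tmem132a (0.877). Tagln, with a median under 10 CPM, was not among the genes searched; its own rho was 0.926 with Acta2, 0.891 with Myh11, equal to that of Tril, and 0.882 with Cnn1. These values describe libraries that share the sort and differ in guide and depth.

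Between the experiments, all 6 genes had a higher estimate in Krt5-Cre tumours, and none passed the threshold. The edgeR quasi-likelihood test compared 6 Krt5-Cre with 19 lentiviral libraries, with Benjamini-Hochberg adjustment over 16180 genes and a threshold of 0.05. Like the other tests between the experiments, it took libraries as independent, with no term for guide or Kdm6a genotype. Tumours that share a guide or genotype are not independent, so these p-values may be too small. The log2 fold change was 1.95 ± 0.837 (SE) for Mylk (adjusted p = 0.0962), 1.70 ± 1.01 for Myh11 (0.238) and 1.64 ± 0.792 for Cnn1 (0.143). It was 0.95 ± 0.634 for Tagln (0.302), 0.59 ± 0.707 for Oxtr (0.596) and 0.39 ± 0.683 for Acta2 (0.727). Of the 6 members 0 were called, against 22.2% of all genes tested (2106 genes higher and 1479 lower in Krt5-Cre tumours), and DESeq2 also called 0. In simulated counts with a dispersion of 0.5, the edgeR test recovered 54.5% of genes planted at an absolute log2 fold change of 2. At 3 it recovered 98.0%. All 6 estimates were under 2 and the members vary widely, so the lack of calls does not show that they changed less than other genes. At an unadjusted p under 0.05 there were 2, Mylk and Cnn1, both higher, against 34.5% of all genes in either direction and 19.8% higher. The median log2 fold change of the members was 1.29, and that of all genes 0.06. No member separated the experiments without overlap, as 2.30% of all genes did.

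Single libraries moved these estimates. Without library 7, the lentiviral tumour with the highest levels, Myh11 (2.93, adjusted p = 0.0101), Cnn1 (2.39, 0.00997) and Mylk (2.40, 0.0292) passed edgeR's threshold. Without library 20, Acta2 turned to -0.16 (0.911), and Myh11 and Mylk stood at 0.88 (0.630) and 1.25 (0.366). In the exact permutation test of mean log2(CPM + 0.5) over all 177100 splits, two-sided and not adjusted, p was 0.0368 for Myh11 and 0.0375 for Cnn1, and between 0.0856 and 0.231 for the others. Cre vector, Krt5 promoter, guides and strain background all differ between the experiments, and Kdm6a fl/fl mice are in the Krt5-Cre experiment only. These differences cannot be told apart.

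**Figure D4:**
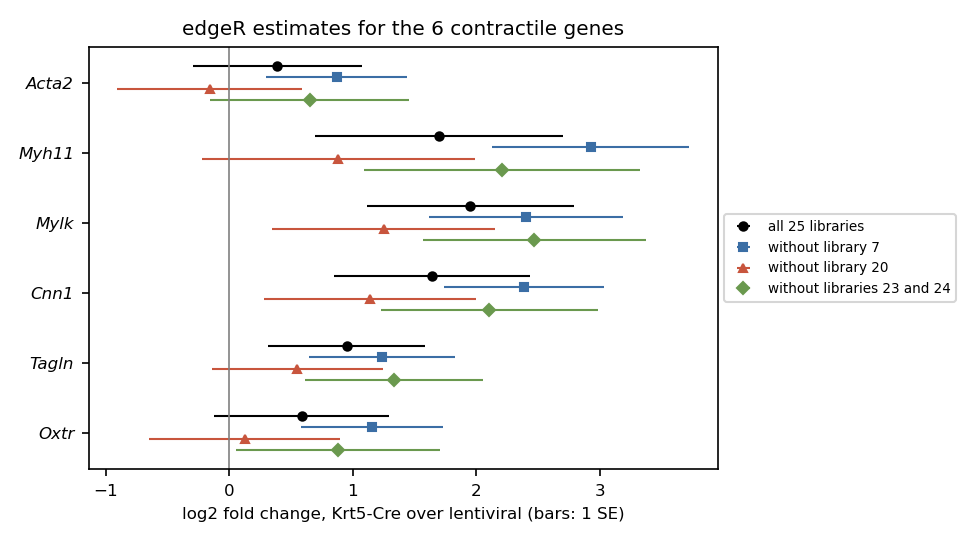
edgeR log2 fold change of each member (Krt5-Cre over lentiviral, bars are 1 SE) with all 25 libraries and with named libraries left out. The estimates without library 7 lie right of those with all libraries, and those without library 20 lie left, where Acta2 crosses 0.

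Of 15 further genes of the contractile apparatus, 2 rose in Krt5-Cre tumours, none fell and 13 did not pass edgeR's test, with a median log2 fold change of 0.25. That share of calls is below the 22.2% of all genes called. Synpo2 (synaptopodin 2, an actin-bundling protein) had a log2 fold change of 2.72 (adjusted p = 0.00696), at 43.1 and 52.5 CPM in libraries 20 and 22 against 1.09 to 6.25 CPM in the other Krt5-Cre libraries. Ppp1r12a, the myosin phosphatase subunit that opposes Mylk, had 0.69 (0.000345). The abundant filament genes were near 0, with 0.25 for Flna (0.457), 0.22 for Tpm1 (0.574), -0.01 for Actn1 (0.972) and -0.14 for Myl6 (0.594). Myl9, at 421, 357 and 272 CPM in libraries 7, 20 and 22 and 92.2 CPM at the lentiviral median, had 0.55 (0.488).

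Downstream of Oxtr, 2 of 15 signalling genes rose and 1 fell, a share near the 22.2% of all genes called. The kinases Rock1 and Rock2, which hold myosin active by inhibiting the phosphatase, had log2 fold changes of 0.82 (adjusted p = 8.23e-05) and 0.62 (0.00134), and the phospholipase Plcb3 had -0.43 (0.0108), by edgeR. DESeq2 added Gnaq, a G protein subunit that couples the receptor to phospholipase (edgeR 0.39, adjusted p = 0.0598). The median of the list was 0.08. Of SRF and its cofactors, Srf was the only one tested and had -0.18 (0.395). Myocd, the muscle-restricted cofactor, had at most 0.876 CPM in any library. Mrtfa and Mrtfb were not analysed here.

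The libraries with the highest contractile levels were not those with the highest basal keratins. The basal list (Krt5, Krt14, Krt17, Trp63, Itga6, Itgb4, Col17a1 and Dst) summed to 5156, 5807 and 2914 CPM in libraries 7, 20 and 22, below the lentiviral median of 9675 CPM. Libraries 14 and 15, with 77.1 and 70.8 CPM summed over the 6 contractile genes, had 20867 and 21617 CPM of basal markers and 8673 and 9252 CPM of Krt14. Libraries 12 and 13, with the lowest contractile sums (61.1 and 33.9 CPM), had 5533 and 7288 CPM of basal markers, below that median, so the low libraries did not share a high basal sum. Over the lentiviral libraries rho of the basal sum with the mean of the members was -0.226, given as a description. The single markers differed in sign, with -0.300 for Krt14 and -0.149 for Krt5 against 0.661 for Dst (a linker of hemidesmosomes), 0.560 for Itga6 (a laminin-binding integrin), 0.247 for Trp63 and 0.207 for Col17a1. Itga6 was highest of all libraries in library 7, at 1357 CPM. In tumours sorted in bulk, fewer cells of a type and less RNA per cell cannot be told apart.

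Markers of other cells that express contractile genes were present too, and their part in these levels was not tested. The 9 pericyte and vascular smooth muscle markers, 5 of them with a median of at least 10 CPM and none at 0 in all libraries, summed to 227 to 960 CPM in the lentiviral and 113 to 865 CPM in the Krt5-Cre experiment, and to 447, 437 and 865 CPM in libraries 7, 20 and 22. Rgs5, a pericyte marker, had 75.7, 20.8 and 125 CPM in those libraries, against 110 CPM in library 16, and Des (desmin) had at most 7.21 CPM in any library. The 8 fibroblast markers, all with a median of at least 10 CPM, spanned 894 to 73992 CPM in the lentiviral and 2500 to 12940 CPM in the Krt5-Cre experiment. They summed to 1148 CPM in library 7, where only libraries 12, 13 and 15 were lower, and to 68700 and 73992 CPM in libraries 16 and 19, where the members went in different directions. Spearman's rho with the mean of the members was 0.0158 for the fibroblast and 0.0649 for the pericyte sum, and 0.688 for the other contractile apparatus. It was 0.472 for the dissociation early-response genes, 0.377 for the luminal and 0.300 for the endothelial markers, and library 7 had the highest luminal sum of all libraries, 6856 CPM. For single pericyte markers rho ran from 0.0281 (Cspg4) to 0.530 (Mcam), with 0.230 for Rgs5 and 0.312 for Des. The part of these lists in the members' levels was not tested.

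The skeletal muscle list, at 0 to 8.20 CPM in the lentiviral libraries, reached 27.7 and 45.2 CPM in libraries 20 and 22, mostly from Acta1 with 25.9 and 42.5 CPM. Of the 5 genes of that list 3 were tested and 1 was called, against 22.2% of all genes tested. The gene called was Acta1, the skeletal muscle actin, with a higher estimate in Krt5-Cre tumours (log2 fold change 3.97, edgeR adjusted p = 0.00122). Acta1 had 5.73 CPM in library 21. In libraries 23, 24 and 25 it had 0.259, 0.343 and 0.287 CPM, below the lentiviral median of 0.368 CPM. Its reads may be shared with Acta2, which was not tested. Library 7, with the highest Acta2 level (3249 CPM), had 1.93 CPM of Acta1. Endothelial markers summed to 30.4, 49.0 and 333 CPM in libraries 7, 20 and 22, and the last is the highest of all libraries. Immune markers summed to 8680 CPM in library 21 and 6076 CPM in library 12, against a lentiviral median of 246 CPM. Libraries 14, 15, 16 and 17 had 2100, 2280, 3430 and 3094 CPM, and library 13 had 22.5 CPM. Over the lentiviral libraries rho of the immune sum with the mean of the members was -0.207. The part of immune cells in the members' levels was not tested.

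None of the 8 luminal, 9 pericyte, 8 fibroblast, 5 endothelial or 4 tested immune markers passed edgeR's threshold between the experiments (lowest adjusted p 0.155, 0.256, 0.250, 0.527 and 0.138). Of all genes tested, 22.2% passed it. DESeq2 called 0 of those for which it gave an adjusted p, which were 4 of the endothelial and 3 of the immune markers and all of the others. At an unadjusted p under 0.05 there was 1 by edgeR, the immune marker Ptprc, against 34.5% of all genes in either direction. Of 8 basal markers 1 passed edgeR's threshold, against 22.2% of all genes. It was Dst, which rose (0.68, adjusted p = 0.00862), and Krt14 (-1.29, 0.202) and Krt5 (-1.11, 0.150) did not pass. Of 7 dissociation early-response genes, Ier2 (-1.19, 1.11e-05) and Jun (-0.59, 0.0219) fell by edgeR, against 22.2% of all genes called in either direction, and DESeq2 added Junb (edgeR -0.57, adjusted p = 0.0514).

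**Figure D5:**
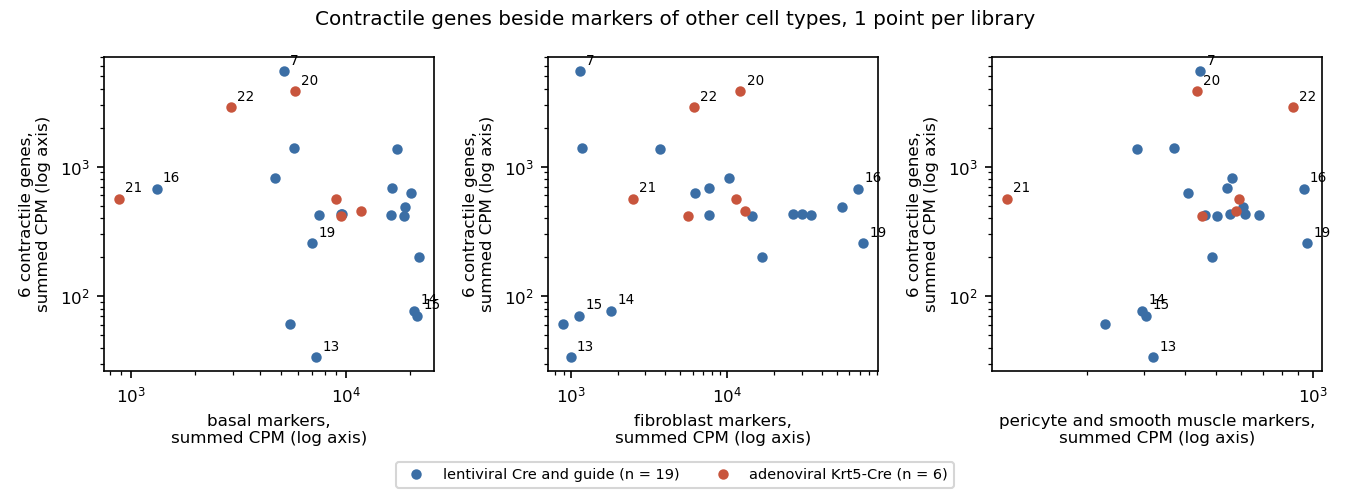
Summed CPM of the 6 contractile genes (log axis) against summed CPM of basal, fibroblast, and pericyte and vascular smooth muscle markers (log axes), 1 point per library. Libraries 14 and 15 combine high basal with low contractile sums, and library 7 combines the highest contractile sum with a low fibroblast sum.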

How the data were processed

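RNA was sequenced from sorted tumour cells in 25 samples. The authors deposited whole-number counts for each gene symbol, unnormalized, in 2 tables. The submitters' processing notes name mm10, GRCm38, DESeq2, featureCounts and HISAT2 (2.1.0), and no source at hand states the annotation release or strand setting. Columns were assigned to the lentiviral and Krt5-Cre experiments from the study's design text, and libraries 23 and 24 to Kdm6a fl/fl from the sample descriptions; no column was left without an experiment.

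The tables were joined on their 53070 shared symbols. Of the counts of libraries 23 and 24, 0.625% and 0.636% lay in 2234 rows of their own table only; they stayed in the totals. CPM (counts per library total) used all rows, and TPM the union of exons in GENCODE M21 (GRCm38) for 52874 symbols with exactly 1 annotated gene. The test was edgeR 4.0.16 in R 4.3.3 (quasi-likelihood, robust, TMM scaling, filterByExpr), and SE is the log2 fold change over the square root of F. All 6 members passed the filter on low counts. Scripts were tested on simulated data. DESeq2 1.42.0, RLE scaling, library totals alone, no filter, and left-out libraries were alternatives. Python 3.11.15 with numpy 2.4.6, pandas 2.3.3, scipy 1.17.1 and matplotlib 3.10.9 did the rest.

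The members and lists were chosen with earlier results of these data known. Named genes are the members, the list genes past the threshold with the largest changes or else the most abundant, and the 10 (for single members, 3) genes of highest rho. Myl9, Krt14, Rgs5 and other list genes given by library beyond that rule were chosen after their values were seen. P-values set a difference or correlation against the spread between these samples, and limits and floors cover counting error only.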

Additional observations from a re-analysis of the deposited data

How the results depend on the processing

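Of 33 alternatives for each gene, the direction between the experiments held in all for Myh11, Mylk, Cnn1, Tagln and Oxtr and in 32 for Acta2. Most of these alternatives left out a single library, so they shared nearly all data and are not independent. The fit without library 13 entered this tally more than 1 time. Leaving out each library in turn gave log2 fold changes of -0.16 to 0.87 for Acta2, 0.88 to 2.93 for Myh11, 1.25 to 2.40 for Mylk and 1.14 to 2.39 for Cnn1, with edgeR adjusted p-values of 0.290 to 0.911, 0.0101 to 0.630, 0.0292 to 0.366 and 0.00997 to 0.391. Without libraries 23 and 24, so that all values came from 1 table, Mylk had 2.47 (edgeR adjusted p = 0.0492). Both libraries are also Kdm6a fl/fl, so table and genotype cannot be told apart there. The exact permutation test gave differences of 2.53 for Myh11 and 1.94 for Cnn1, past the threshold without adjustment. Tagln and Oxtr passed under no alternative. The count of genes called between the experiments, 3585 (2106 higher), was 5779 (3724 higher) without the filter and 5847 (3793 higher) by DESeq2, which replaces outlying counts in the larger group; the cause was not tested. With libraries 13 and 21 left out, an alternative chosen after the data were seen, 3900 genes and 0 of 6 members were called. Pearson's r named 4 of the 10 genes most alike. No paired analysis was possible because the columns carry no replicate number. In library 13, Mylk and Tagln had 0 counts and Myh11 had 1, although its total of 12749927 counts was above those of libraries 10 and 23; the cause was not tested.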
